A study of Mus musculus with 14 samples.

Results

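The genes described here are 3 serine and threonine kinase receptors of the BMP and TGF-beta pathway, Bmpr1a, Bmpr2 and Tgfbr1, and 2 Id genes, Id2 and Id3. They were chosen by name, each symbol matched 1 row, and together they are 5 of the 9558 gene rows of the deposited table. Levels were measured in 14 single cells, which all came from the bones of adult C57BL/6 mice of the genotype Prrx1-CreERT;Tomato given tamoxifen daily for 3 days at 2 mg per 30 g. In such mice the Prrx1 promoter drives a tamoxifen-dependent Cre recombinase, and recombined cells and their descendants make the red reporter Tomato; red cells were sorted from collagenase digests of bones cleared of marrow and picked singly. The labels form 1 group with no untreated or unmarked control and name no animal. The cells therefore stand for 1 sample, nothing could be tested between samples, and every value below describes these cells only.

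BMPs and TGF-betas are secreted ligands that bring together type I and type II receptor kinases at the cell surface. The type II receptor phosphorylates the type I receptor, which phosphorylates Smad proteins that enter the nucleus with Smad4. Bmpr1a is a type I receptor for BMPs, Bmpr2 is the main type II receptor for BMPs, and Tgfbr1 is the type I receptor for TGF-beta. The Id genes encode helix-loop-helix proteins without a DNA-binding region, which bind E proteins and keep them from DNA, and they are textbook targets of BMP signalling, although other inputs, serum and TGF-beta among them, also change them. In bone, BMPs drive osteoblast differentiation and TGF-beta is stored in the matrix.

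In GRCm38, by the GENCODE M21 annotation, Bmpr1a (ENSMUSG00000021796) is at chr14:34410734-34503341 (minus strand), Bmpr2 (ENSMUSG00000067336) at chr1:59763400-59879014 (plus strand) and Tgfbr1 (ENSMUSG00000007613) at chr4:47353222-47414931 (plus strand). Id2 (ENSMUSG00000020644) is at chr12:25093799-25097140 (minus strand) and Id3 (ENSMUSG00000007872) at chr4:136143497-136145755 (plus strand). All are protein-coding. Bmpr1a shares exonic bases with Gm17110, an antisense gene, and the sources used here do not say that strand was used in counting, so its low values could hold reads of either gene. The receptors have long transcripts, the longest annotated being 5956 bases for Bmpr1a, 12899 for Bmpr2 and 5756 for Tgfbr1, against 1969 for Id2 and 1278 for Id3. That matters here because the values are per transcript length although the library kit reads the 3' end.

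The promoters of Id2, Id3 and Bmpr2 are shown because the Id genes held the highest levels of the set and the 4 cells lowest in Bmpr2 were also the 4 lowest in Id3. The windows run from 250 bases before to 50 after the RefSeq start (build GRCm38.p6), all 5 genes had an entry, and the start differs from the outermost GENCODE start by 1048 bases for Id2, 325 for Id3 and 879 for Bmpr2. Capitals mark GGCGCC, the GC-rich core bound by Smad1 and Smad5, CAGAC or its reverse complement GTCTG, the Smad box, and CCAAT or its reverse complement ATTGG, a common promoter box bound by NF-Y.
Id2 promoter, chr12:25096043-25096342, minus strand: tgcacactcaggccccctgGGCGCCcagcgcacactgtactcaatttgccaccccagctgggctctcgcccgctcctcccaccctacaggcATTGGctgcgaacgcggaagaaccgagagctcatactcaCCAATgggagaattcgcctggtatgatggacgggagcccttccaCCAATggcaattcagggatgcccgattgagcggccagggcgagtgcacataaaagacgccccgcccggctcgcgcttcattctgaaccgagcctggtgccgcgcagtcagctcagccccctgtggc
Id3 promoter, chr4:136143572-136143871, plus strand: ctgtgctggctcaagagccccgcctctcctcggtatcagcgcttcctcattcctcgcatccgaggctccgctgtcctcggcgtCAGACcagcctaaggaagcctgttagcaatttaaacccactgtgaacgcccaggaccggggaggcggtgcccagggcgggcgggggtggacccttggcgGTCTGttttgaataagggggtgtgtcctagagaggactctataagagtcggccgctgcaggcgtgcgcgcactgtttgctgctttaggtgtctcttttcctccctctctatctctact
Bmpr2 promoter, chr1:59764029-59764328, plus strand: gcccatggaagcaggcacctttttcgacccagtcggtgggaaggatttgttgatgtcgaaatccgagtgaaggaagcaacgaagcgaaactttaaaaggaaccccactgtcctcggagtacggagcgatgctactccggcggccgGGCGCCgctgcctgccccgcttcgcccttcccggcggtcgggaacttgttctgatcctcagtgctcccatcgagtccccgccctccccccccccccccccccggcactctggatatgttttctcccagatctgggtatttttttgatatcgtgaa

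Id2 and Id3 differed in the letters found in these windows. The Id2 window held 1 GGCGCC, 231 bases before the start, and 3 CCAAT boxes, at 159, 120 and 76 bases before it, and no CAGAC. The Id3 window held 2 Smad boxes, at 167 and 68 bases before the start, and neither of the other motifs. Bmpr2 held 1 GGCGCC, 105 bases before the start, and the windows of Bmpr1a and of the first of 2 Tgfbr1 entries also held 1. Bmpr1a held 1 CCAAT box as well, and the first Tgfbr1 entry 2. The second Tgfbr1 entry held 1 Smad box and 1 CCAAT box. Both strands were searched and the motifs do not overlap one another. Of all 32851 promoter entries of this length, 11.9% held GGCGCC, 49.6% CAGAC and 37.4% CCAAT. The windows with GGCGCC were 79.3% G and C for Bmpr1a, 74.7% for Tgfbr1, 63.3% for Id2 and 59.3% for Bmpr2, against 60% for Id3. No share among entries of like G and C content is given, so the 11.9% cannot show an excess. The palindrome GTCTAGAC, in 0.213% of entries, was found in no window of the 5 genes. A match is a description of the letters and was not set against expression.

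Levels are given as log2(FPKM + 1) after quantile normalization, where FPKM stands for fragments per kilobase of transcript, scaled to the mapped fragments of the library, and a gene was counted as detected at 1 or more, an FPKM of 1. Some features of the whole table bear on these genes. Every cell had 5066 rows detected, which the normalization fixes, while rows above 0 numbered 7304 to 8027 per cell, and the depth of the libraries is unknown. All 10 mesenchymal and fibroblast matrix markers examined were detected in at least 7 cells, but cells 8, 11 and 14 also held 10 of 10 pan-haematopoietic markers, at means of 6.45, 8.77 and 9.68. The other 11 cells held 5 to 9 of those markers, at means of 1.66 to 5.38. The cells also fell into a set of 9 (cells 1, 2, 5, 6, 7, 8, 9, 10 and 14) and a set of 5 (cells 3, 4, 11, 12 and 13) by which rows were at 0, with a median correlation of zeros of 0.194 within sets and -0.0150 between them; the labels give no batch for this split.

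Of the 5 genes, 4 were detected in at least 7 cells, as were 51.7% of all rows. Id2 and Id3 were detected in all 14 cells, which 15.8% of rows were. Bmpr2 was detected in 13 cells (92.9%, exact Clopper-Pearson 95% interval 66.1% to 99.8%) and Tgfbr1 in 11 (78.6%, 49.2% to 95.3%). Bmpr1a was detected in 3 cells (21.4%, 4.66% to 50.8%), and 26.9% of all rows were detected in 3 cells or fewer. These intervals cover counting error only. In the 12 cells left without cells 11 and 14, which had the highest blood marker means, Id2 and Id3 were detected in 12, Bmpr2 in 11, Tgfbr1 in 10 and Bmpr1a in 2, and the medians were 10.40 for Id3, 7.88 for Id2, 4.17 for Tgfbr1, 3.45 for Bmpr2 and 0.12 for Bmpr1a. Without cells 6 and 8 as well, whose blood marker means of 5.38 and 6.45 came next, 10 cells remained, and Id2 and Id3 were detected in 10, Bmpr2 in 9, Tgfbr1 in 8 and Bmpr1a in 2. The medians in those 10 cells were 10.51 for Id3, 7.75 for Id2, 4.17 for Tgfbr1, 3.50 for Bmpr2 and 0.10 for Bmpr1a.

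**Figure D1:**
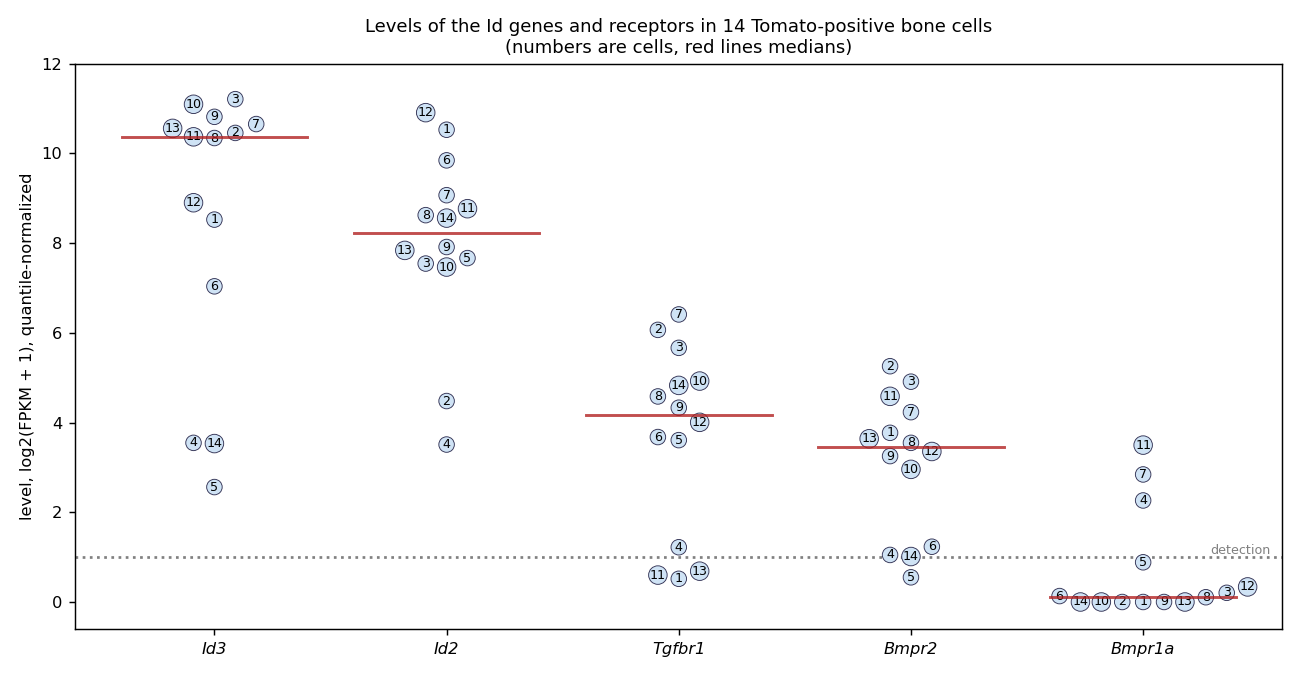
Level of each gene (log2(FPKM + 1), vertical axis) in each of the 14 cells, whose numbers stand at their values; red lines are medians and the dotted line is the detection level of 1. Id3 has a median of 10.36 with cells 4, 5 and 14 far below it, Id2 a median of 8.24, and Bmpr1a lies under 1 in all cells but 4, 7 and 11.

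Among the type I receptors, cell 11 had Bmpr1a at 3.50, cell 7 at 2.84 and cell 4 at 2.26. The gene was at 0.89 in cell 5, at 0.11 to 0.34 in cells 3, 6, 8 and 12, and at 0 in the 6 cells 1, 2, 9, 10, 13 and 14. Its median was 0.12 (SD 1.21, 14 cells), a median that exceeded those of 18.9% of rows. Even where detected, Bmpr1a stood at only the 62.0th to 71.7th percentile of the rows of its cell. Without a known depth, the low cells cannot be told from cells whose few transcripts were missed.

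Tgfbr1 was detected far more widely, and its cells fell into separate levels. It was highest in cell 7 at 6.41, cell 2 at 6.07 and cell 3 at 5.67. In cells 5, 6, 8, 9, 10, 12 and 14 it lay between 3.61 and 4.93. In the remaining cells 1, 4, 11 and 13 it was at 0.52, 1.22, 0.60 and 0.69, and no cell lay between 1.22 and 3.61. Its median was 4.17 (SD 2.07, 14 cells), above the medians of 84.5% of rows. Of the 4 low cells, 3 belong to the set of 5 cells split by their zeros, where the median was 1.22, against 4.58 in the set of 9. Tgfbr1 was detected in 3 of the 5 cells and in 8 of the 9, and whether the split has a part in these levels was not tested.

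Bmpr2, the type II receptor, showed a gap of the same kind in other cells. The highest levels, 5.26, 4.91, 4.58 and 4.23, were those of cells 2, 3, 11 and 7. A middle group of cells 1, 8, 9, 10, 12 and 13 held 2.96 to 3.77. Cells 6, 4, 14 and 5 had only 1.23, 1.05, 1.01 and 0.55, so 3 of the cells counted as detected lay just above the detection level and would not be counted at a slightly higher one. Its median was 3.45 (SD 1.54, 14 cells), above the medians of 80.5% of rows. Cell 4 was low in both Bmpr2 and Tgfbr1, whereas cells 1, 11 and 13 were low in Tgfbr1 alone and cells 5, 6 and 14 in Bmpr2 alone.

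**Figure D2:**
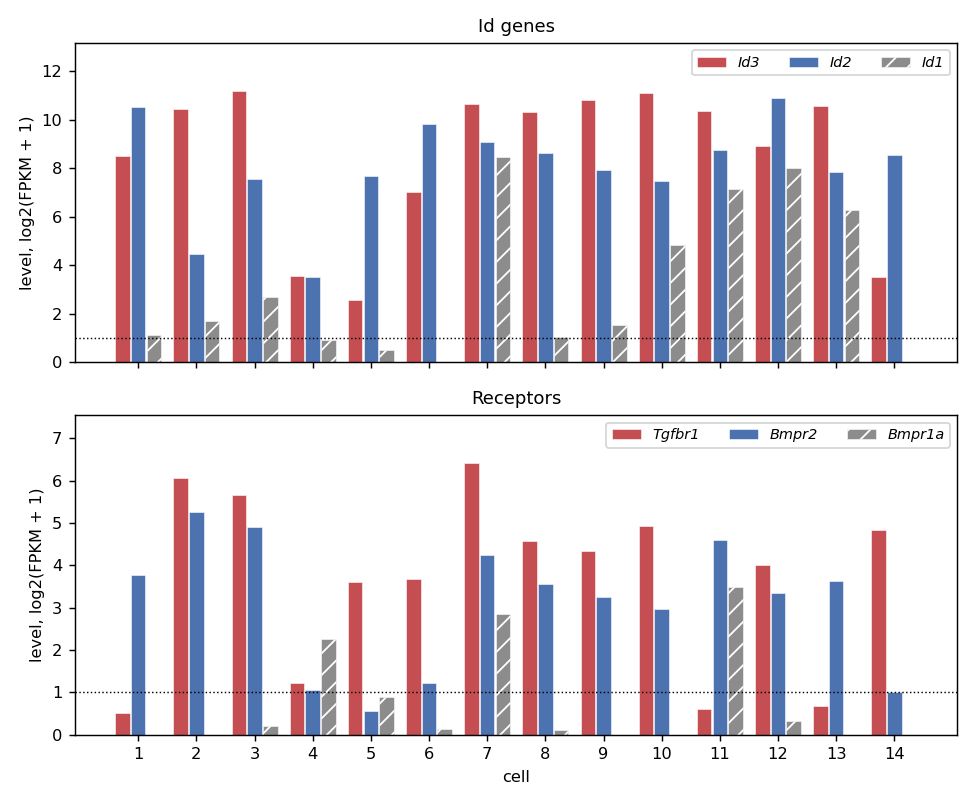
Level (log2(FPKM + 1), vertical axis, bars from 0) of the Id genes Id3, Id2 and Id1 (upper panel) and of the receptors Tgfbr1, Bmpr2 and Bmpr1a (lower panel) in cells 1 to 14; the dotted line is the detection level of 1. Id3 is low in cells 4, 5 and 14, Id2 in cells 2 and 4, and Id1 reaches 4 only in cells 7, 10, 11, 12 and 13.

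Because a BMP signal needs both receptor types in the same cell, their joint detection was counted. Bmpr1a and Bmpr2 were both detected in 3 of 14 cells (21.4%, exact interval 4.66% to 50.8%), cells 4, 7 and 11, and in 2 of the 12 cells left without cells 11 and 14. These are all the cells with Bmpr1a. Since Bmpr2 was detected in 13 cells, the joint count could hardly differ from the count of Bmpr1a and says little about the pairing. In cell 4 Bmpr2 was at only 1.05. The other measured type I receptors were also found in few cells. Bmpr1b, a second BMP type I receptor, was detected in cells 5 and 7 at 2.81 and 4.18. Acvr1, a type I receptor for BMPs and activins known as ALK2, was detected in cells 1, 9 and 13 at 5.76, 3.45 and 3.31. Acvrl1, the type I receptor of endothelial cells known as ALK1, passed in 5 cells, and cell 14 had the most, 6.23. The mean over 3 endothelial markers was lowest in cells 14, 5 and 10, at 0.73 in each, and the mean over 4 macrophage markers was highest in cell 14, at 10.71. No relation of these means to Acvrl1 was tested. Cell 7 alone held more than 1 of Bmpr1a, Bmpr1b and Acvr1, and 7 cells had at least 1 of them, cells 1, 4, 5, 7, 9, 11 and 13. Bmpr2 was detected in 6 of those 7 cells. Counting Acvrl1 as well, Bmpr2 stood with some BMP type I receptor in 8 of 14 cells (57.1%, exact interval 28.9% to 82.3%). With Bmpr2 in 13 cells, these joint counts too could hardly differ from the counts of the type I receptors. In cells 2, 6, 8, 10 and 12 none of these 4 type I receptor genes reached the detection level.

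For TGF-beta, Tgfbr1 and its type II partner Tgfbr2 were both detected in 7 cells (50%, exact interval 23.0% to 77.0%), cells 2, 4, 6, 7, 8, 9 and 12. Since Tgfbr1 was detected in 11 of 14 cells and Tgfbr2 in 9, the single counts largely fix this joint count, which says little about the pairing. Tgfbr2 was found in 9 cells (median 1.63, highest 3.90 in cell 8), so per transcript length its median lay below that of Tgfbr1. The co-receptor gene Tgfbr3, whose product presents TGF-beta to the type II receptor, was found in 9 cells and peaked at 6.35 in cell 7, where Tgfbr1 was also highest. Bambi, a decoy that lacks the kinase, passed the detection level in 8 cells, and cells 10 and 2 had the most, 5.87 and 5.84. Acvr2a, an activin and BMP type II receptor, was detected in cells 11 and 13 alone, at 5.73 and 6.56, and these are 2 of the cells in which Tgfbr1 was low.

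**Figure D3:**
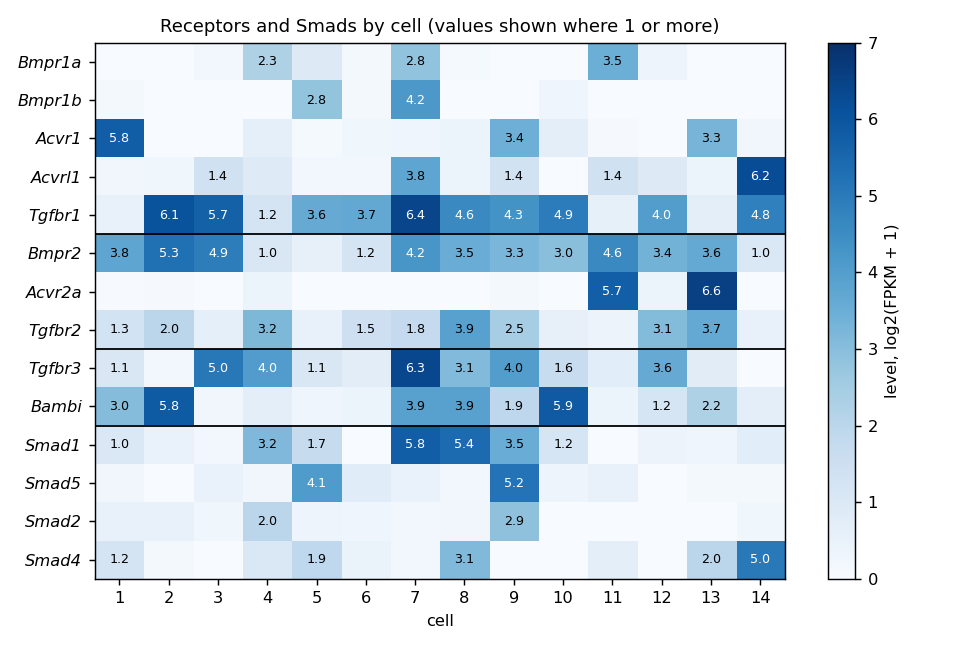
Level (colour, log2(FPKM + 1)) of type I receptors (top block), type II receptors, the co-receptor Tgfbr3 with the decoy Bambi, and Smad genes (bottom block) in each of the 14 cells, with the value printed where it is 1 or more. The rows of Tgfbr1 and Bmpr2 are filled in most cells, while Bmpr1a, Bmpr1b and Acvr1 appear in 3, 2 and 3 cells.

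By their medians the Id genes stood far above the receptors, though not in every cell. Id3 lay below Tgfbr1 in cells 5 and 14, and Id2 lay below both Tgfbr1 and Bmpr2 in cell 2. The highest Id3 levels were 11.21, 11.10 and 10.82, those of cells 3, 10 and 9, followed by cells 2, 7, 8, 11 and 13 with 10.34 to 10.66. It was lower in cells 12, 1 and 6, at 8.90, 8.53 and 7.04. The remaining cells 4, 14 and 5 had 3.55, 3.53 and 2.56, with a gap of more than 3 log2 units to the next cell. The median of Id3 was 10.36, above the medians of 99.4% of rows, and its SD of 3.11 exceeded the SD of 98.6% of rows. In 8 of the 14 cells Id3 was at 10 or more, and its percentile within the cell ranged from 64.5 in cell 5 to 99.6 in cell 3.

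Id2 was more even, with a different pair of low cells. It was highest in cell 12 at 10.91, cell 1 at 10.53 and cell 6 at 9.85. In cells 3, 5, 7, 8, 9, 10, 11, 13 and 14 it lay between 7.47 and 9.07. Only cells 2 and 4 were lower, at 4.48 and 3.51. Its median was 8.24 (SD 2.04, 14 cells), above the medians of 97.1% of rows. Cells 5 and 14, which were low in Id3, held Id2 at 7.67 and 8.56, whereas cell 4 was low in both genes and cell 2 had Id3 at 10.46 with Id2 at 4.48.

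Id3 minus Id2 within a cell had a median of 1.59 log2 units and ranged from -5.10 in cell 5 to 5.98 in cell 2. Id3 was the higher of the pair in 9 cells, and Id2 in cells 1, 5, 6, 12 and 14. The SD of this difference, 3.40, was larger than its median, so the order of Id3 and Id2 was not the same from cell to cell. Both were at 7 or more in 10 of 14 cells, namely all but cells 2, 4, 5 and 14.

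The other members of the Id family were less widely found. Id1, the best known BMP target of the family, was found in 10 cells (median 1.62), and cells 7, 11 and 12 had it at 7.15 to 8.49, cell 13 at 6.28 and cell 10 at 4.83. In the other 9 cells it was at 0 to 2.68, although Id2 or Id3 was at 8 or more in each of these except cells 4 and 5. Id4 was detected in 4 cells, highest in cell 1 at 5.99. All cells with Id1 at 4 or more also had Id2 and Id3 at 7 or more. Of the E proteins that Id proteins bind, Tcf4 was found in every one of the 14 cells (median 4.50), Tcf12 in 7 cells and Tcf3 in 2, at 6.45 in cell 3 and 3.44 in cell 11.

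The order of the medians was Id3, Id2, Tgfbr1, Bmpr2 and Bmpr1a. Of the neighbours in that order, Id3 and Id2 differed by less than the spread of their difference over the cells, and so did Tgfbr1 and Bmpr2, whose difference had a median of 0.92 with an SD of 2.37 and was positive in 11 cells. Id2 exceeded Tgfbr1 in 13 of 14 cells, all but cell 2, by a median of 3.89 (SD 3.00). Bmpr2 exceeded Bmpr1a in 12 of 14 cells, all but cells 4 and 5, by a median of 2.99 (SD 1.89). Undoing the division by transcript length raised the median of Bmpr2 to 7.01 and that of Tgfbr1 to 6.63, which turned their order round, with Tgfbr1 higher in 6 cells. The Id genes then stood at 10.71 for Id3 and 9.21 for Id2.

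Set side by side within each cell, the mean of the 2 Id genes exceeded the mean of the 3 receptors in all 14 cells, by a median of 6.66 log2 units (SD 1.82, range 2.02 to 8.10). The smallest differences, 2.02, 3.43, 3.69 and 4.10, were those of cells 4, 5, 2 and 14, and cell 1 had the largest, 8.10. With the division by length undone the median was 5.04, without cells 11 and 14 it was 6.70, and without cells 6, 8, 11 and 14 it was 6.22. This is a difference of transcript levels between genes and holds no measure of receptor protein or signalling. The receptor mean includes Bmpr1a, whose median was 0.12. In cells 5 and 14 Id3 lay below Tgfbr1, and in cell 2 Id2 lay below both Tgfbr1 and Bmpr2.

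The 4 cells lowest in Bmpr2 were also the 4 lowest in Id3, although cell 6 was far less low in Id3, at 7.04, than cells 4, 5 and 14, at 2.56 to 3.55. The 4 cells with Bmpr2 under 2.5, cells 4, 5, 6 and 14, had Id3 at 2.56 to 7.04, and the 10 cells with Bmpr2 at 2.96 or more had Id3 at 8.53 to 11.21. Since the cells form separate clumps, no correlation over all 14 is given. Within the 10 cells with the higher Bmpr2, Spearman's rho was -0.03 and Pearson's r was 0.185, so the relation rests on the 4 low cells. Other values moved with some of these cells. Cells 4, 5 and 14 had the highest means over 7 housekeeping genes, 9.52, 9.39 and 9.37, against 7.92 in cell 6 and 7.37 to 9.34 in all others. Cells 4 and 5 had the lowest means over 12 immediate early genes, 2.64 and 4.10, against 5.57 to 7.60 in the others, and the lowest means over the 10 pan-haematopoietic markers, 1.66 and 1.67. All 10 of those markers were detected in cell 14, with Ptprc (CD45) at 6.51 and a mean of 9.68, the mean in cell 6 was 5.38, and no marker of the list was at 0 in cells 4, 5 or 14. Levels fell most steeply with transcript length in cells 4 and 5, where Spearman's rho of level with length over rows was -0.24 and -0.21, against -0.16 to -0.08 in the others. The mean level of the 535 rows with a transcript of 8000 bases or more, among them Bmpr2, was lowest in cells 4, 5 and 14, at 1.42, 1.52 and 1.65, against 1.66 to 2.48 in the others, with 2.35 in cell 6. Cell 14 also had the lowest mean over the 10 mesenchymal and fibroblast matrix markers, 4.598, against 6.67 to 10.37 in the others. Cells 4, 5 and 6 lay within that range, at 7.02, 7.34 and 8.38. The mean over 4 macrophage markers was 10.71 in cell 14, against 1.11 to 5.93 in the others. In cells 4, 5 and 6 it was 1.11, 2.53 and 5.22. The part of housekeeping levels, immediate early expression, blood cell or mesenchymal transcripts or transcript length in the low Id3 and Bmpr2 was not tested.

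**Figure D4:**
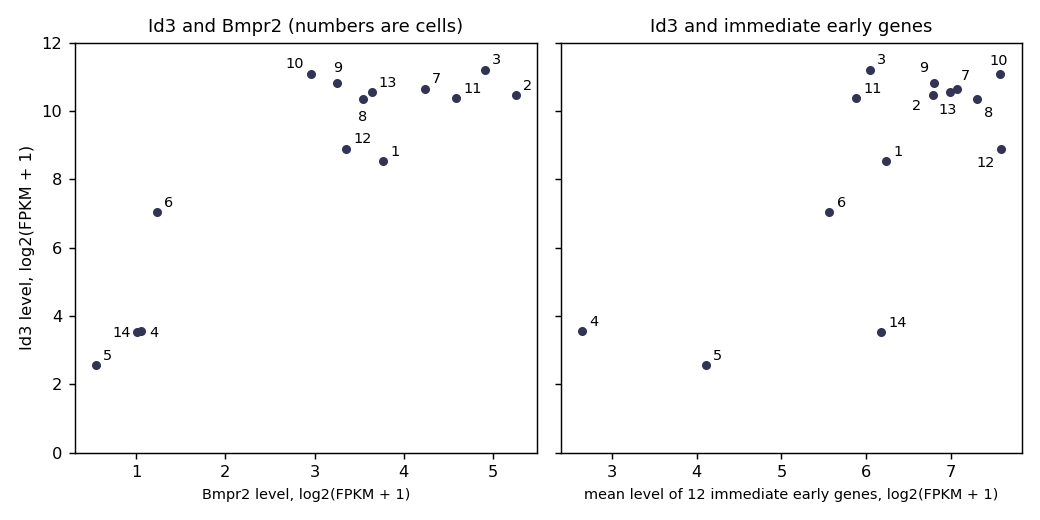
Level of Id3 (log2(FPKM + 1), vertical axis) in each of the 14 cells against the level of Bmpr2 (left) and against the mean level of 12 immediate early genes (right, both log2(FPKM + 1)); numbers are cells. Cells 4, 5, 6 and 14 lie apart at low Bmpr2 with Id3 at 7.04 or less, and cell 14 is low in Id3 without the low immediate early mean of cells 4 and 5.

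Id2 did not follow Id3 in this respect. Cell 14, with the highest pan-haematopoietic mean, had Id2 at 8.56, and cell 4, with the lowest, 1.66, had Id2 at 3.51. Other cells differed from this: cell 5, with a mean of 1.67, had Id2 at 7.67. Cells 12 and 1, the highest in Id2 at 10.91 and 10.53, had means of only 3.67 and 3.28. Over the 14 cells, Spearman's rho of Id2 with the pan-haematopoietic mean was 0.622 and Pearson's r was 0.361, and without cells 11 and 14, the farthest from the median of the blood mean, they were 0.657 and 0.468. This rho was the highest in absolute size of the 50 relations computed between the 5 genes and 9 marker lists or the number of rows above 0. It was equalled in size by that of Id3 with 7 housekeeping genes, at -0.62. By Pearson's r the largest of the 50 was that of Id3 with the 12 immediate early genes, 0.758, where rho was 0.512. Outside the 50, rho of Bmpr2 with the mean of the rows of 8000 bases or more, Bmpr2 included, was 0.719. The points share the quantile normalization, which ties the levels of all genes within a cell. With this many relations over 14 cells, values of these sizes are descriptions only.

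Genes with the pattern most like each member over the 14 cells were listed by Spearman's rho among 4777 rows detected in at least 7 cells, after predicted, ribosomal protein and small RNA genes were left out. For Bmpr2 they were Zfp827 (0.930), Rad54l2 (0.921) and Prex2 (0.899). For Tgfbr1 they were the RNA helicase gene Ddx46 (0.864), the transcription kinase gene Cdk9 (0.780) and Dpf2 (0.771). For Id3 they were the histone methyltransferase gene Ehmt2 (0.855), the kinase gene Abl1 and the adrenomedullin gene Adm (0.815 each). For Id2 they were the clock gene Arntl2 (0.820), Atf7ip (0.789) and the homeobox gene Six2 (0.780). For Bmpr1a they were Emp2 (0.867), Aig1 (0.808) and Snhg17 (0.803), which rest largely on values under the detection level. Over the 4777 rows compared, the rho of a row with its own closest row had a median of 0.864 and an upper quartile of 0.899. The highest rho of Bmpr2, 0.930, lay above that quartile, and those of the other 4 genes lay at 0.820 to 0.867. Bmpr2 had 105 rows at 0.7 or more (2.20%), against 10 for Tgfbr1, 14 for Id2, 23 for Bmpr1a and 26 for Id3. The longest transcript of those 105 rows had a median of 4121 bases, against 3062 over all rows compared.

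The other genes of the pathway were taken from a list of 100 genes by role, of which 68 had a row, the 5 members included. Of the 63 others, 33 were detected in at least 7 cells (52.4%), near the 51.7% of all rows, and 20 in 3 cells or fewer (31.7%), against 26.9% of all rows. The counts by role, each over 2 to 10 genes with a row, are given as descriptions, and no difference between roles was tested.

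Of the BMP ligand genes, 5 had a row, and 2 of those passed in 7 cells or more. Bmp4 was found in 12 cells and peaked at 7.03 in cell 7. Gdf10, also detected in 12 cells, was highest in the same cell at 8.50. All 3 receptors were detected in cell 7 and also in cell 4, where Bmp4 was at 2.31 and Gdf10 at 0.33. Bmp2 was found in 4 cells, of which cell 2 had 6.34, and Bmp5 and Bmp8a in 2 each. Among 6 TGF-beta and activin ligand genes 3 passed the same count. Tgfb1 was found in 11 cells (median 1.83), Tgfb2 in 8, and Inhba, which encodes an activin subunit, in 7. Inhba stood at 8.38 and 6.21 in cells 5 and 4, where Id3 was low, and also at 5.77 in cell 12, where Id3 was at 8.90. It was only at 1.37 in cell 14, which was also low in Id3, and at 1.13 in cell 6, the next lowest in Id3. Inhbb was detected in cell 12 alone, at 4.82.

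Of 4 measured Smad genes, 1 was detected in at least 7 cells. Smad1, which carries the BMP signal, was found in 7 cells, and its highest levels were 5.76 and 5.39, those of cells 7 and 8. Smad5 was detected in cells 5 and 9, at 4.09 and 5.18, and Smad4, the shared partner, in 5 cells, with 5.02 in cell 14. Smad4 was found together with Smad1 or Smad5 in 3 cells. Smad2, of the TGF-beta arm, was detected in 2 cells, at most 2.90 in cell 9.

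Of the 7 measured inhibitors inside the cell, 6 were detected in at least 7 cells. Fkbp1a, whose product binds and restrains the type I receptor, was present in every cell of the 14 (median 6.92). Smad7, which blocks both arms and is itself induced by them, was found in 10 cells, and cells 3, 13 and 2 had 6.09, 5.70 and 5.56. Smad6, which blocks the BMP arm, was found in 2 cells, with 4.81 in cell 10. Skil and Ski, which repress Smad transcription, were each detected in 12 cells.

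Of 8 secreted antagonist genes, 3 were detected in at least 7 cells. Every one of the 14 cells had Nbl1 (median 6.19) and Fstl1 (median 5.96), and 11 had Twsg1. Noggin (Nog) and chordin (Chrd) were each detected in 1 cell, and in both cases it was cell 7, at 4.81 and 4.75. Genes for latency and activation of TGF-beta included Ltbp4, detected in 13 cells, and Itgav, in 13, with 6 of 10 detected in at least 7 cells.

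Among the target genes, all 6 measured TGF-beta targets were detected in at least 7 cells, with medians of 7.73 for the cell cycle inhibitor Cdkn1a, 6.08 for Tsc22d1, 4.78 for Tgfbi and 4.72 for Ctgf. Postn, which encodes the matrix protein periostin, reached the highest level of these targets in any cell, 10.86 in cell 1, with a median of 3.56 and 12 cells at the detection level or above. Of 9 BMP targets with a row, 3 were detected in at least 7 cells, and these were Id1, Id2 and Id3. Of all rows, 51.7% were detected in at least 7 cells. The listed targets Cdkn2b, Msx2 and Atoh8 had no row and are not counted. Msx1, Dlx5, Runx2, Sp7, Hey1 and Id4 were each detected in 2 to 4 cells. Many of these targets answer to other signals too, and the 2 lists were not tested against each other.

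**Figure D5:**
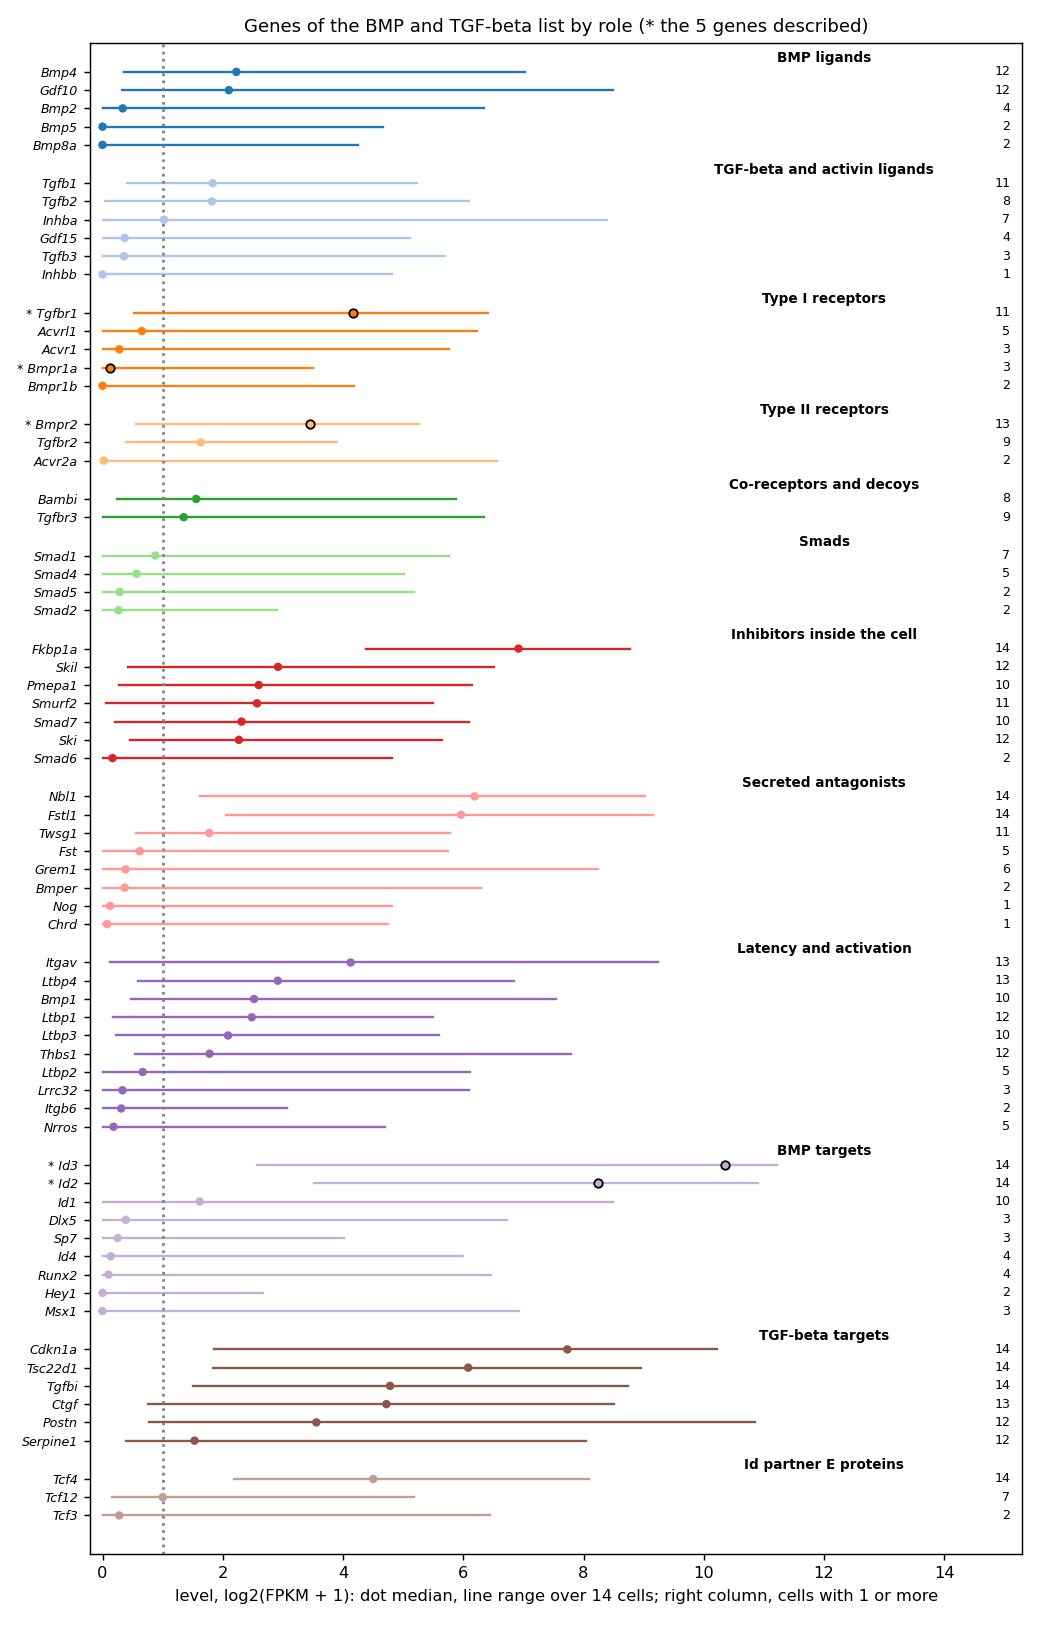
Median (dot) and range (line) of the level (log2(FPKM + 1), horizontal axis) over 14 cells for the 68 listed genes with a row, by role; the right column gives the number of cells at 1 or more and the dotted line marks 1. Id3 and Id2, at 10.36 and 8.24, have the highest medians of the list, and the type I receptors other than Tgfbr1 have medians under 1.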

How the data were processed

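RNA was measured in 14 picked single cells, each 1 library. SMART-Seq v4 3' and Nextera XT kits were used, per the labels' protocols; the submitters' processing notes list TopHat2, Cufflinks and GRCm38. The deposited values are read as log2(FPKM + 1) with quantile normalization: neither step is recorded, so both rest on the values, whose maximum is 14.58 in every cell. Values rank genes within a cell; RNA content and depth cannot be compared. How the 9558 rows were picked is not stated in the sources used here, and 0 value columns lacked a sample. Where 1 symbol had several rows the first was used. With Python 3.11.15, NumPy 2.4.6, pandas 2.3.3 and SciPy 1.17.1, detection (1 or more), medians, SD, percentiles, within-cell differences and Spearman's rho were computed; lengths are the longest GENCODE M21 transcript (9535 of 9549 IDs matched) and promoters are from RefSeq. Rank correlation was tested on simulated data. No test between samples was run. The genes and lists were chosen with earlier results of these data known. The rule for naming other genes took, in each role, the gene of highest median, those detected in all 14 cells or in at most 1, and the gene of highest level in any cell, and the 3 genes of highest rho for each member, leaving out predicted, ribosomal protein and small RNA symbols; the other pathway genes named were picked after their values were seen, as were the immediate early list and the length check. Alternatives changed the detection threshold, the pseudocount (10), the length division, the scale and the cells used.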

Additional observations from a re-analysis of the deposited data

How the results depend on the processing

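Members detected in at least 7 cells numbered 4, and 2 at a log2 value of 5. Cells with Bmpr1a and Bmpr2 both detected numbered 3, against 8 above 0, 2 at FPKM 5, 1 at FPKM 10 and 0 at a log2 value of 5. Pathway genes detected in at least 7 cells numbered 37, against 62 above 0, 20 and 14 with the threshold at FPKM 5 and FPKM 10, and 9 with it at a log2 of 5, so these counts follow the threshold. The median difference between the Id and receptor means stayed positive in its alternatives, from 4.92 with a pseudocount of 10 to 6.70 without cells 11 and 14 (6.22 without cells 6 and 8 as well), and was 38.5 percentage points as percentiles; with each cell left out it was 6.65 or 6.68, which follows from taking a median. Bmpr2 was detected in 13 cells, 7 with the threshold at FPKM 10 and 1 at a log2 of 5. The median of Tgfbr1 was 1.22 in the 5 cells split off by their zeros, against 4.17 in all cells, a split chosen after the data were seen. Of 192 alternatives computed, 173 left their value within the spread over cells or the limits used and 19 moved it. Apart from the difference between the Id and receptor means, these values are counts or medians of levels, which cannot change sign. The order of Tgfbr1 and Bmpr2 turned round with the division by length undone and in the 5 cells split off by their zeros. No paired analysis was possible because there is 1 group. Depth is unknown, which limits every statement on genes of low level.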
